A study of Mus musculus with 24 samples.

Results

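The endoplasmic reticulum (ER) chaperones and folding enzymes Hspa5, Hsp90b1, Pdia4, Pdia6, Dnajb9, Sdf2l1, Creld2, Manf, Hyou1 and Calr were followed by name in a liver RNA-seq count table, and all 10 of them were found among its 35275 genes. Proteins that enter the ER are folded there with the help of chaperones, lectins and enzymes that form disulfide bonds. When folding falls behind, the membrane sensors Ire1, Perk and Atf6 start the unfolded protein response, which raises transcription of these helpers and slows translation. The liver secretes most plasma proteins, so that its hepatocytes carry a heavy load of ER clients.

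Livers were taken from 8 to 10 week old male C57BL/6 mice on chow after a fast of 24 h, with 4 libraries in each of 6 genotype groups. The control mice, labelled Wild type, were described in the methods as littermates that carried loxP-flanked Tsc1 and Cpt2 alleles. Tsc1 L-/- mice lost Tsc1, an inhibitor of mTorc1, Cpt2 L-/- mice lost Cpt2, an enzyme required for mitochondrial oxidation of long-chain fatty acids, and the mice labelled Tsc1Cpt2 L-/- (DKO) lost both, each through a Cre that is driven by the albumin promoter, a promoter active in hepatocytes. PPAR-a KO mice lacked Ppara, the nuclear receptor that drives the fasting programme of fat oxidation, and the Cpt2L-/- Ppara KO mice lacked both Cpt2 and Ppara. For these last groups the labels give only the genotype, and neither the breeding nor the cells in which Ppara was lost is given in the sources used here. The paper's RNA-seq methods give age, male sex, chow and the fast for the other groups and do not name these. Replicates are numbered in the labels, with no statement that each number is a separate animal, so p-values measure the spread between these libraries. The design asks how a block in fat oxidation, active mTorc1 or loss of Ppara, alone or in pairs, changes liver transcripts after a fast, and here the question is put to the ER chaperones.

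Total counts ran from 14470968 to 20371204 per library, and none of the 36 pairs of libraries of one group agreed within sampling noise. Tsc1 transcript fell in Tsc1 L-/- (log2 fold change -0.65) and DKO liver (-1.21), and Ppara transcript was at 216 to 277 CPM (counts scaled to library depth) in control liver against 13.2 to 44.6 CPM in PPAR-a KO and 26.2 to 89.9 CPM in Cpt2L-/- Ppara KO liver. Cpt2 transcript was at 88.2 to 103.7 CPM in control against 79.9 to 105 CPM in Cpt2 L-/- liver, so gene counts do not check that label. Replicate 1 of Cpt2L-/- Ppara KO held the most Ppara reads of its group (89.9 CPM) and replicate 1 of PPAR-a KO the most of its own (44.6 CPM). The first held 123 CPM of Cpt2, above every control library, where the other 3 libraries of its group held 31.4 to 39.1 CPM, and the second held 94.8 CPM of Cpt2 where the other 3 of its group held 39.8 to 51.4 CPM. Counts of calls on these groups and the values of the sensors and most alike genes are also given without the replicate 1 libraries, a choice made after their values were seen. A set of 5 genes chosen after their values were seen split the libraries by more than genotype. For example, Rps3a3 was at 33.3 to 96.0 CPM in the 12 control, Tsc1 L-/- and DKO libraries and at most 3.40 CPM in the other 12. Cpt2 L-/- or PPAR-a KO against control, DKO against Cpt2 L-/- and both interactions cross this line, and genotype cannot be told apart from it there. The other comparisons lie within one side of it.

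The tissue was checked against marker lists. The 7 hepatocyte markers were all detected in every library, with a summed level of 72285 to 90033 CPM in control, 36810 to 63119 CPM in Cpt2 L-/-, 33598 to 40309 CPM in DKO, 64583 to 91707 CPM in PPAR-a KO and 45529 to 66870 CPM in Cpt2L-/- Ppara KO liver. Plasma and B cells, which are rich in these chaperones, gave 9.51 to 58.8 CPM over 8 markers in control and 3.76 to 6.85 CPM in PPAR-a KO liver. Pancreatic acinar markers, from the other organ rich in them, summed to at most 22.9 CPM in any library, with up to 6 of 7 at 0. In whole tissue, fewer cells of a type and less RNA per cell cannot be told apart.

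The members fall into 4 roles. Hspa5 (BiP), the Hsp70 of the ER, works with its nucleotide exchange factor Hyou1, its J-domain partner Dnajb9 and the J-domain associated Sdf2l1. Hsp90b1 (Grp94) is the Hsp90 of the ER and Calr a calcium-binding lectin chaperone for glycoproteins. Pdia4 and Pdia6 are disulfide isomerases, and Creld2 and Manf are ER proteins known to be induced and secreted under ER stress. Per transcript length the order in control liver was led by Calr at 328 ± 45.8 FPKM (counts scaled for gene length and depth) and Hspa5 at 288 ± 55.6 FPKM, followed by Hsp90b1 at 149 ± 20.9 FPKM (SD, n = 4). Pdia6 stood at 104 ± 3.48 FPKM and Pdia4 at 90.4 ± 21.4 FPKM. The remaining members lay at 20.1 FPKM (Sdf2l1) to 37.0 FPKM (Manf).

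In the GRCm38 coordinates of the count table the members lie on 8 chromosomes. Hspa5 spans chr2:34771970-34776531 on the plus strand, Hsp90b1 chr10:86690209-86705509 (minus), Calr chr8:84841850-84846934 (minus) and Hyou1 chr9:44379490-44392369 (plus). Manf also lies on chromosome 9, at chr9:106838312-106891979 (minus), and Pdia6 (chr12:17266545-17284770, plus) shares chromosome 12 with Dnajb9 (chr12:44205897-44210068, minus). Pdia4 spans chr6:47796142-47813512 (minus), Sdf2l1 chr16:17130138-17132383 (minus) and Creld2 chr15:88819646-88826681 (plus). Manf shares 146 exon bases with Vprbp on the opposite strand and 14 with Rbm15b, and whether counting used strand is not given in the sources used here. Vprbp stayed between 24.1 and 43.8 CPM in all 6 groups, while Manf spanned 19.05 to 608 CPM. Rbm15b, on the same strand as Manf, spanned 11.5 to 72.9 CPM. Its mean was 20.7 CPM in control, 28.2 CPM in Cpt2 L-/-, 53.1 CPM in PPAR-a KO and 18.0 CPM in Cpt2L-/- Ppara KO liver, so that it was higher with Manf in PPAR-a KO but not in the last group, and the part of shared reads was not tested. Exon overlaps of Hsp90b1 and Pdia6 involve genes with at most 158 and 19 counts in any library, far under the lowest counts of these members.

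Promoters of ER chaperones are known for the ER stress response element (ERSE), a CCAAT box and a CCACG motif separated by 9 bases, which NF-Y and Atf6 or Xbp1 bind. The motif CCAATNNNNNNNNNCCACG was searched on both strands in RefSeq promoter windows (GRCm38.p6, 250 bases before to 50 bases after the start site), in which 8 of the 10 members had an entry. Manf and Hyou1 had none. The motif was found in 5 of the 8 windows, with a pair of sites at Hsp90b1, and in 0.119% of all 32851 windows. The sites of these 5 windows are printed, each 5′ to 3′ in the orientation of the motif, with CCAAT and CCACG in capitals.
Hspa5: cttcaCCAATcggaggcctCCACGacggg
Hsp90b1 (upstream): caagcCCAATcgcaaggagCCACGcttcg
Hsp90b1 (downstream): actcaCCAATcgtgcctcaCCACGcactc
Pdia6: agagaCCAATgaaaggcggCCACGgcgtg
Creld2: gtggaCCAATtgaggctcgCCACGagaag
Calr: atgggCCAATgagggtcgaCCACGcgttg
These stretches lie at chr2:34772020-34772048 (plus) for Hspa5, chr10:86705633-86705661 (minus) and chr10:86705528-86705556 (plus) for Hsp90b1, chr12:17266486-17266514 (plus) for Pdia6, chr15:88819515-88819543 (minus) for Creld2 and chr8:84847070-84847098 (plus) for Calr. The RefSeq start of Hspa5 lies downstream of the first base that the count table gives for the gene, so that its site falls inside the span given above. Counted from the RefSeq start site, the motif runs from -65 to -47 at Hspa5, -98 to -80 at Pdia6, -126 to -108 at Creld2 and -162 to -144 at Calr, and from -212 to -194 and -107 to -89 at Hsp90b1. It is read on the strand of the gene at Hspa5, Pdia6 and the upstream site of Hsp90b1, and on the opposite strand at the other 3 sites. A bare CCAAT was present in 8 of 8 member windows and in 37.4% of all windows. The related motifs ERSE-II (ATTGG, any 1 base, CCACG, in 0.0365% of windows) and TGACGTGG (0.676%) were in 0 of the 8. The windows of Pdia4, Dnajb9 and Sdf2l1 do not hold the letters of the full ERSE, which says nothing of binding there.

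**Figure D1:**
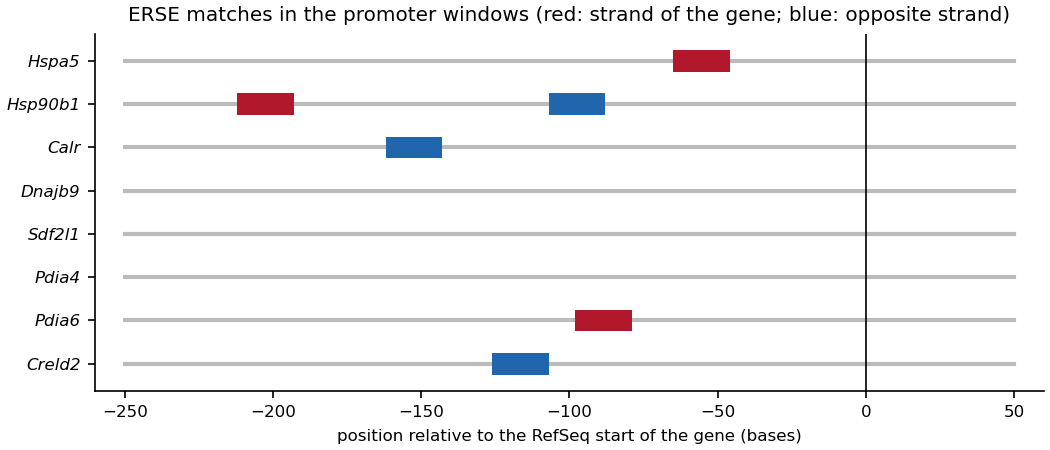
Positions of the ERSE in the promoter windows of the 8 members with a RefSeq entry (grey lines), against distance from the RefSeq start site in bases, with red for a match on the strand of the gene and blue for the opposite strand. The 6 ERSE sites lie in the windows of 5 members, all upstream of the RefSeq start.

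Across the 6 groups the members shared the ends of their order of means, and the groups in between changed places from member to member. PPAR-a KO had the highest mean for 10 of 10 members and Cpt2 L-/- the lowest for 9, the exception being Dnajb9, whose lowest mean was in Tsc1 L-/- liver. The spread within a group was widest in PPAR-a KO, where the highest library was 1.47 to 9.89 times the lowest, and smallest in DKO, where it was 1.12 to 1.68 times. The members tended to be high in the same library of a group, with replicate 2 of Cpt2L-/- Ppara KO the highest of its group for 10 members, replicate 1 of Tsc1 L-/- and replicate 2 of control for 9 each and replicate 4 of PPAR-a KO for 8. The values below are CPM scaled by TMM over all 24 libraries, given for replicates 1 to 4 in that order.

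**Figure D2:**
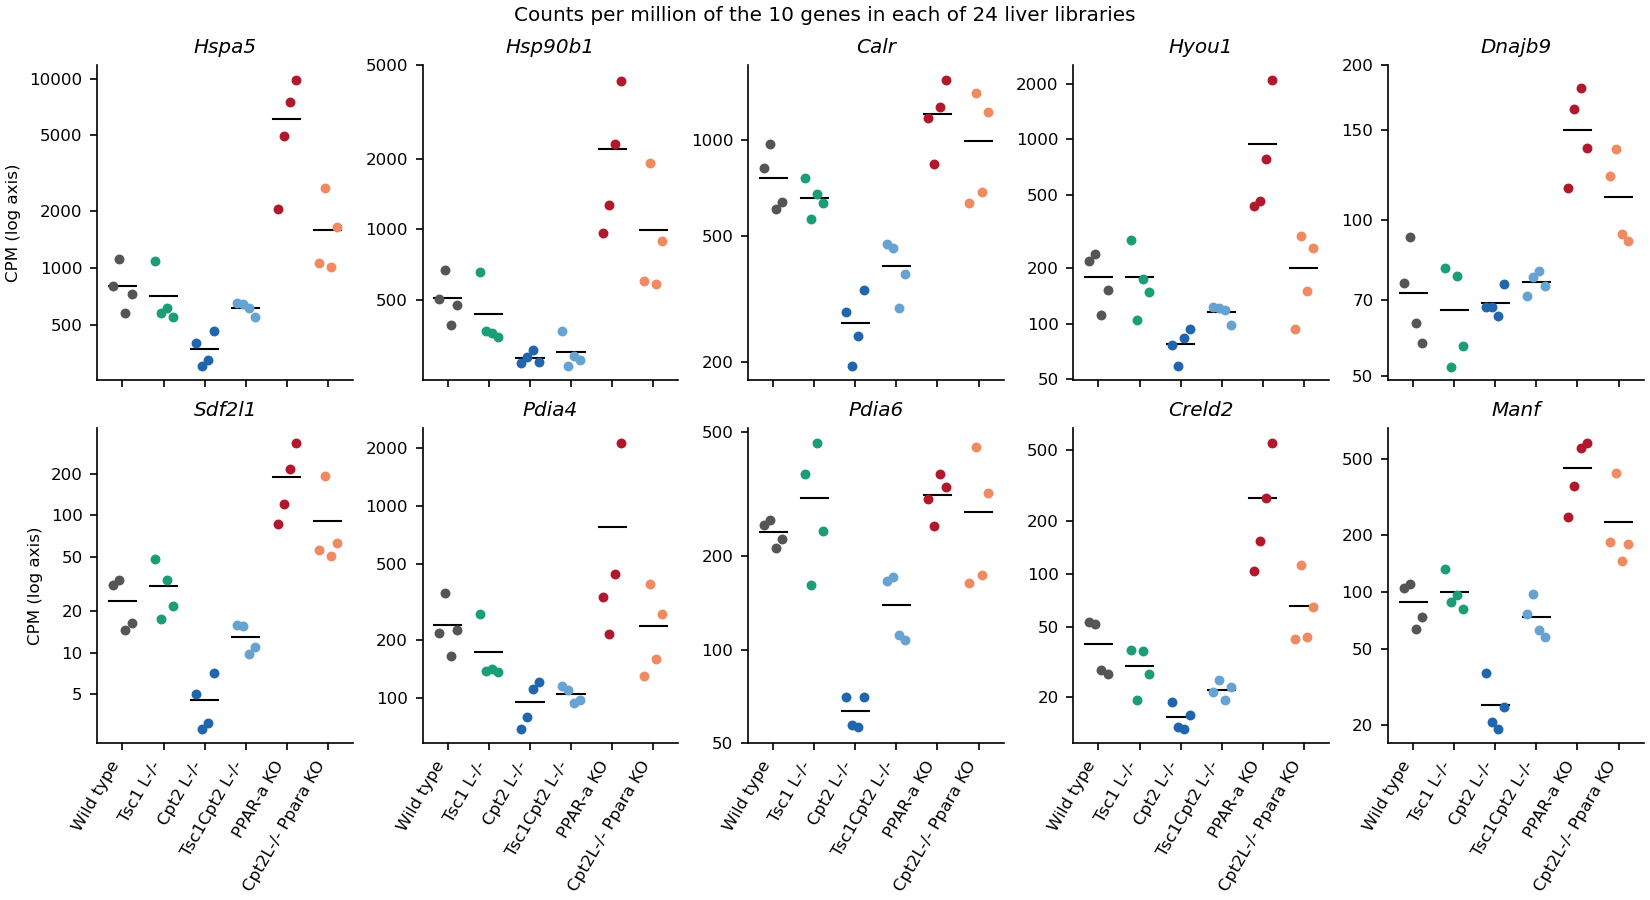
CPM of each member in every library (log axis), by genotype group, with a point for each library and a short line for the group mean. PPAR-a KO has the highest mean for all 10 members, Cpt2 L-/- has the lowest mean for every member but Dnajb9, and the mean of DKO lies between those of Cpt2 L-/- and control for every member but Dnajb9.

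Hspa5, the central ER chaperone, was at 802, 1115, 575 and 723 CPM in control and 1091, 579, 609.9 and 548 CPM in Tsc1 L-/- liver. It was at 402, 302, 326 and 463 CPM for Cpt2 L-/- and 650.3, 640.5, 610.4 and 552 CPM for DKO. The Cpt2 L-/- libraries lay below all others, while those of DKO overlapped control. Without Ppara, Hspa5 was at 2047, 4974, 7508 and 9873 CPM, and in Cpt2L-/- Ppara KO liver at 1065, 2644, 1008 and 1633 CPM. Every PPAR-a KO library was above every control library, and those of Cpt2L-/- Ppara KO overlapped both groups.

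Hyou1, which releases ADP from Hspa5, was at 219, 238, 111 and 153 CPM in control liver, against 76.2, 58.9, 83.8 and 93.2 CPM for Cpt2 L-/- and 124, 122, 118 and 98.8 CPM for DKO. The DKO libraries lay just above all of Cpt2 L-/-. It was at 436, 460.9, 778 and 2104 CPM in PPAR-a KO and 94.1, 299, 151 and 257 CPM in Cpt2L-/- Ppara KO liver. This was the single member for which these last groups did not overlap. Dnajb9, which delivers clients to Hspa5 and helps to keep Ire1 silent, stood apart from the rest. It was at 75.6, 92.8, 63.4 and 57.8 CPM in control liver, against 68.1, 67.9, 65.4 and 75.3 CPM for Cpt2 L-/- and 71.3, 77.6, 80.0 and 74.5 CPM for DKO, and these groups overlapped. For PPAR-a KO it was at 116, 164, 180.3 and 138 CPM and in Cpt2L-/- Ppara KO liver at 122, 138, 94.1 and 91.1 CPM, so that only the first was above all control libraries.

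Sdf2l1 had the widest range of the members relative to its level. It was at 31.0, 33.8, 14.5 and 16.4 CPM in control liver, against 5.06, 2.79, 3.12 and 7.18 CPM for Cpt2 L-/- and 15.9, 15.7, 9.75 and 11.1 CPM for DKO. In PPAR-a KO liver it was at 86.9, 121, 217 and 336 CPM and in Cpt2L-/- Ppara KO liver at 55.5, 192, 50.8 and 62.8 CPM. All libraries of both Ppara groups lay above all control libraries, and all Cpt2 L-/- libraries below all others.

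Hsp90b1 was at 507, 671, 391 and 474 CPM in control liver, against 269.9, 285, 308 and 272 CPM for Cpt2 L-/- and 368, 262, 288 and 279 CPM for DKO. Its DKO libraries overlapped those of Cpt2 L-/-, and all 8 lay below control. It was at 969, 1274, 2306 and 4275 CPM in PPAR-a KO and 605, 1909.7, 583 and 896 CPM in Cpt2L-/- Ppara KO liver. Calr was at 819, 975, 607 and 639.6 CPM in control liver, against 286, 194, 242 and 336 CPM for Cpt2 L-/- and 471.7, 459, 295 and 377 CPM for DKO, the last below all of control. In PPAR-a KO liver Calr was at 1179, 840.4, 1276 and 1555 CPM, which overlapped control, and in Cpt2L-/- Ppara KO liver at 636, 1413, 686 and 1231 CPM, which lay above all of Cpt2 L-/-.

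The disulfide isomerases differed from each other. Pdia4 was at 218, 350.0, 165 and 226 CPM in control liver, against 69.1, 79.8, 112 and 121 CPM for Cpt2 L-/- and 116, 110.1, 94.9 and 97.7 CPM for DKO, where its range fell inside that of Cpt2 L-/-. In PPAR-a KO liver Pdia4 was at 336, 214, 442 and 2119.9 CPM, with replicate 4 far above the others, and in Cpt2L-/- Ppara KO liver at 131, 391, 159 and 272 CPM. Pdia6 was at 252, 260.3, 212 and 226 CPM in control liver, against 70.3, 57.1, 56.5 and 70.3 CPM for Cpt2 L-/- and 166, 171, 112 and 107 CPM for DKO. Here the 3 groups did not overlap at all, with DKO in between. Pdia6 was at 303, 249, 365 and 332 CPM in PPAR-a KO and 163, 448, 173 and 318 CPM in Cpt2L-/- Ppara KO liver.

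Of the secreted ER proteins, Manf was at 105, 110.5, 63.8 and 73.7 CPM in control liver, against 37.7, 20.8, 19.05 and 24.9 CPM for Cpt2 L-/- and 76.9, 97.4, 63.3 and 57.9 CPM for DKO. The DKO libraries overlapped control and lay above all of Cpt2 L-/-. It was at 249, 361, 567 and 608 CPM in PPAR-a KO and 184, 420.0, 146 and 179.6 CPM in Cpt2L-/- Ppara KO liver, both above all of control. Creld2 was at 53.2, 51.9, 28.4 and 26.8 CPM in control liver, against 18.8, 13.5, 13.1 and 15.9 CPM for Cpt2 L-/- and 21.2, 24.8, 19.2 and 22.8 CPM for DKO, 3 groups without overlap. In PPAR-a KO liver Creld2 was at 103, 153, 269.7 and 553 CPM and in Cpt2L-/- Ppara KO liver at 42.8, 111, 43.7 and 64.6 CPM.

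In fasted liver without Cpt2 nearly all of the ER chaperones were lower than in control. The members were compared with edgeR's quasi-likelihood test, adjusted over all 13641 genes tested, and 9 of 10 fell in Cpt2 L-/- against control liver, where 14.9% of all genes fell and 16.2% rose. Those same 9 had no overlap between groups, as had 14.8% of all genes in that direction. Sdf2l1 fell most, with a log2 fold change of -2.39 ± 0.40 (SE), or 5.24-fold lower (adjusted p = 0.000411). Pdia6 (-1.90 ± 0.26, 3.74-fold lower), Manf (-1.78 ± 0.25, 3.44-fold) and Calr (-1.53 ± 0.20, 2.88-fold) followed. Hspa5 itself fell by 2.16-fold (-1.11 ± 0.22, adjusted p = 0.00106). Creld2 (-1.39 ± 0.24), Pdia4 (-1.33 ± 0.26), Hyou1 (-1.21 ± 0.27) and Hsp90b1 (-0.85 ± 0.20) fell too, with adjusted p-values up to 0.00314. Dnajb9 did not pass the test (-0.07 ± 0.15, adjusted p = 0.768), and its sign changed when FPKM were tested in place of counts. The median log2 fold change was -1.36 over the members and -0.02 over all genes tested. Hepatocyte markers were also lower in this comparison (3 of 7 called, 0 higher), as were stellate and fibroblast markers (3 of 6 called, 0 higher, summing to 184 to 272 CPM against 266 to 361 CPM). Of the plasma and B cell markers tested 1 of 6 was lower, and over the whole list they summed to 6.40 to 9.38 CPM against 9.51 to 58.8 CPM, without overlap. Of the Kupffer and macrophage markers 1 of 8 was higher, as was 1 of 6 endothelial markers. The part of these cells in the result was not tested.

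Loss of Tsc1 alone gave no call among the members. In Tsc1 L-/- against control liver 0 of 10 members passed edgeR's quasi-likelihood test, where 6.64% of all genes did, 0 had an unadjusted p under 0.05, as had 21% of all genes, and DESeq2 called 0. The log2 fold changes ran from -0.46 for Pdia4 (adjusted p = 0.314) to 0.37 for Pdia6 (0.423), and the groups overlapped for every member. Pdia4 was at 274, 138, 142 and 138 CPM and Pdia6 at 366, 161, 461.4 and 240.0 CPM in Tsc1 L-/- liver, so that one library lay above the rest for the first and a pair of them for the second. The log2 fold change of Hsp90b1 was -0.23 ± 0.20 and that of Calr -0.20 ± 0.19. Replicate 1 of Tsc1 L-/- was the highest of its group for 9 members, and without it Pdia4 fell (adjusted p = 0.0481), as did 2.09% of all genes.

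In liver without both Tsc1 and Cpt2 part of the chaperones stood above their Cpt2 L-/- level. In DKO against Cpt2 L-/- liver 5 of 10 members rose and 0 fell, where 10.9% of all genes rose and 7.4% fell. Manf rose by 2.92-fold (log2 fold change 1.55 ± 0.25, adjusted p = 0.000717) and Pdia6 by 2.22-fold (1.15 ± 0.25, adjusted p = 0.0056). Sdf2l1 (1.55 ± 0.39), Hspa5 (0.74 ± 0.22) and Calr (0.62 ± 0.19) rose as well, with adjusted p-values of 0.0153, 0.0285 and 0.033. The other 5 members did not pass the test. Hyou1 (0.59, adjusted p = 0.14) and Creld2 (0.54, 0.127) did not overlap between the groups, whereas Pdia4 (0.15) and Hsp90b1 (0.10) did. The median was 0.60 over the members and -0.01 over all genes. Over 16 refits with other settings or without single libraries, Manf and Pdia6 were called in 16, Sdf2l1 in 14, Calr in 11 and Hspa5 in 10. With all 24 libraries in the fit 2 calls were left, where 4.66% of all genes rose, as without replicate 3 of Cpt2 L-/- (6.39%), and 3 without replicate 2 of Cpt2 L-/- or replicate 1 or 2 of DKO (6.69% to 10.2%). Kupffer cell and macrophage markers were lower in 5 of 8 cases and higher in 1 (169 to 285 CPM in DKO against 216 to 395 CPM in Cpt2 L-/- liver). Endothelial markers were lower in 2 of 6 cases and hepatocyte markers lower in 2 of 7 and higher in 1. Stellate and fibroblast markers were lower in 1 of 6 cases (158 to 196 CPM against 184 to 272 CPM). Their part in the result was not tested.

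Against control, the lectin chaperone Calr, Hsp90b1 and the disulfide isomerases were still lower in DKO liver. In DKO against control liver 5 members fell and 0 rose, where 17.1% of all genes fell and 19.3% rose. Pdia4 fell by 2.26-fold (-1.17 ± 0.25, adjusted p = 0.00202) and Calr by 1.87-fold (-0.90 ± 0.19, adjusted p = 0.0015). Creld2 (-0.85 ± 0.24), Pdia6 (-0.76 ± 0.25) and Hsp90b1 (-0.75 ± 0.20) fell too. Manf (-0.24, adjusted p = 0.464), Hspa5 (-0.37, 0.199), Hyou1 (-0.62, 0.0821) and Sdf2l1 (-0.84, 0.0878) did not pass the test. Calr was called in all 16 refits, Pdia4 and Hsp90b1 in 15, Creld2 in 14 and Pdia6 in 8, and the count fell from 5 to 1 with all 24 libraries in the fit, where 12.6% of all genes fell, and to 3 with limma on log2(FPKM + 0.1). Against Tsc1 L-/- liver, where 15.2% of all genes fell and 16.9% rose, 5 members fell in DKO liver and 0 rose. These were Sdf2l1 (-1.20 ± 0.37), Pdia6 (-1.13 ± 0.25), Pdia4 (-0.71 ± 0.25), Calr (-0.70 ± 0.19) and Hsp90b1 (-0.52 ± 0.20), with adjusted p-values from 0.00248 to 0.048. Leaving out 1 library gave 2 calls without replicate 1 of Tsc1 L-/- or replicate 3 or 4 of DKO and 3 without replicate 2 of DKO, where 12.4% to 14.2% of all genes fell. With all 24 libraries in the fit 2 were called, where 10.7% of all genes fell. Over 16 refits Calr and Pdia6 were called in 16, Sdf2l1 in 10, Hsp90b1 in 8 and Pdia4 in 6. The median over the members was -0.57, and -0.30 without replicate 1 of Tsc1 L-/-. Markers of several cell types were lower in DKO liver. Against control these were 4 of 7 hepatocyte and 6 of 6 stellate and fibroblast markers (158 to 196 CPM against 266 to 361 CPM). To these came 6 of 8 Kupffer and macrophage markers, with 1 higher, and 4 of 6 endothelial markers. Of the plasma and B cell markers 3 of 6 were lower and of the bile duct markers 1 of 4. Against Tsc1 L-/- liver the lower markers were 4 of 7 hepatocyte, 5 of 8 Kupffer and macrophage with 1 higher, 2 of 6 stellate and fibroblast and 1 of 6 endothelial. Their part in these results was not tested. The comparisons of Cpt2 L-/-, Tsc1 L-/- and DKO share libraries and are not independent of each other.

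Whether the effect of Cpt2 loss differed with Tsc1 was tested by an interaction term in the same fit. All 10 members had a positive interaction, as had 50.4% of all genes, and 6 had an unadjusted p under 0.05, as had 18.9% of all genes. Manf passed edgeR's quasi-likelihood test over all genes (1.36 ± 0.34, adjusted p = 0.0473), where 2.38% of all genes did. Sdf2l1 (1.19, adjusted p = 0.244), Creld2 (0.95, 0.14), Hspa5 (0.92, 0.124) and Calr (0.82, 0.115) did not. When single libraries were left out, the call for Manf was kept without replicate 3 of control, replicate 1 of Cpt2 L-/-, replicate 4 of DKO or replicate 1 of Tsc1 L-/-. It was lost without any other single library. The call was also kept with other size factors, with DESeq2 and with the replicate number as a block, in 7 of 23 refits in all.

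**Figure D3:**
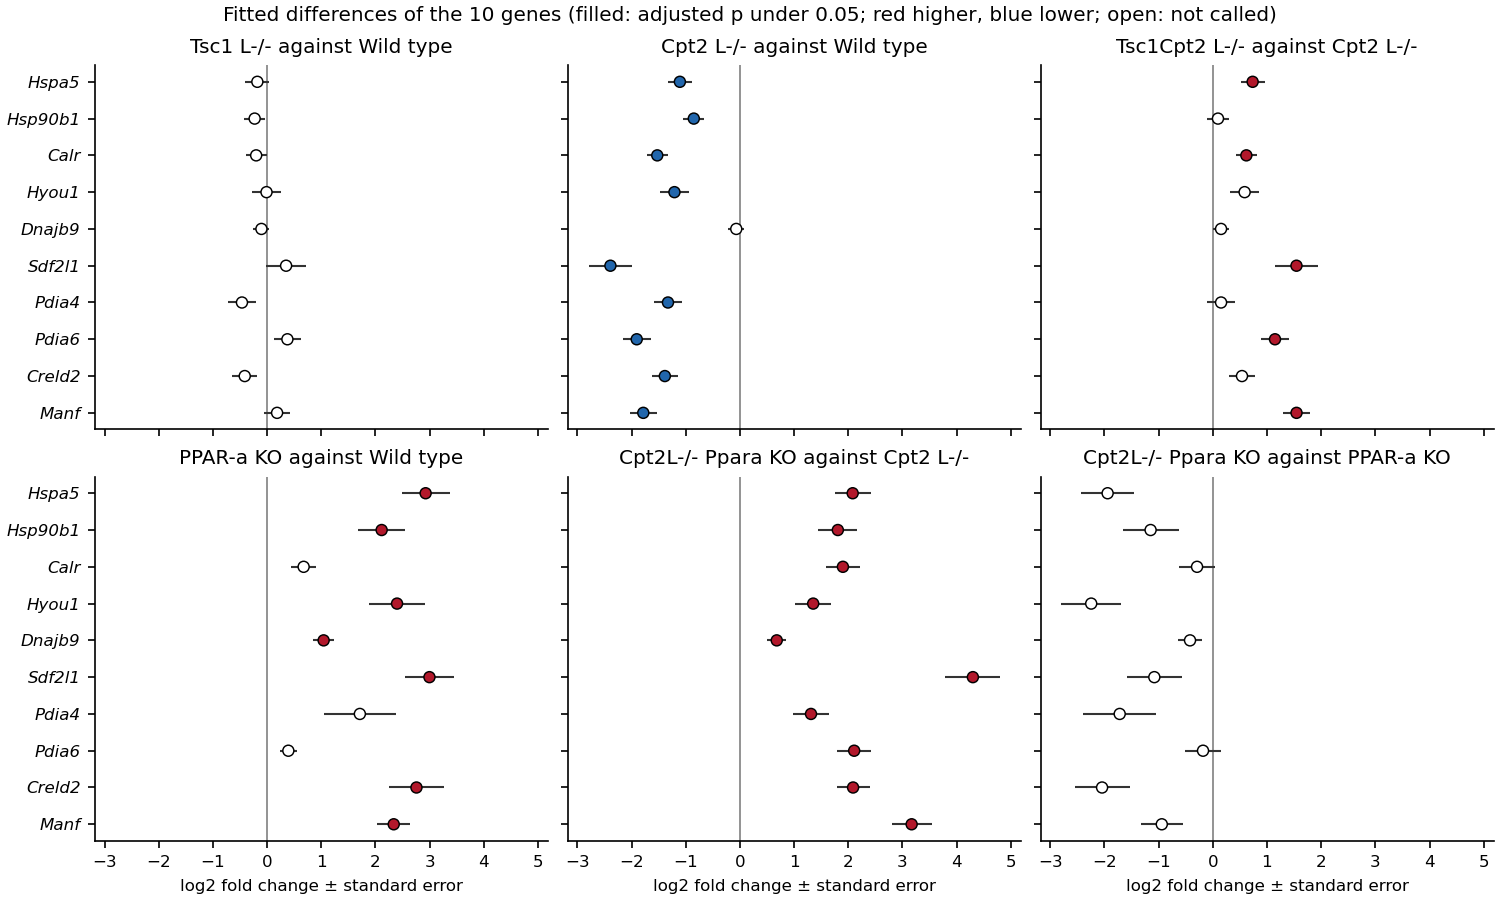
Log2 fold change of each member with its SE in 6 comparisons, from edgeR's quasi-likelihood fits, with points filled red (higher) or blue (lower) for an adjusted p under 0.05 and open otherwise. All 10 members lie below 0 in Cpt2 L-/- against control, where Dnajb9 turned above 0 when FPKM were tested, and all lie above 0 in PPAR-a KO against control and in Cpt2L-/- Ppara KO against Cpt2 L-/-.

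In liver without Ppara most of the chaperones were higher than in control. In PPAR-a KO against control liver 7 of 10 members rose and 0 fell, where 14.8% of the 12955 genes tested rose and 12.7% fell. The same 7 had no overlap between groups, as had 15.3% of all genes in that direction. Sdf2l1 rose by 7.98-fold (log2 fold change 2.996 ± 0.45, adjusted p = 0.00154), Hspa5 by 7.60-fold (2.93 ± 0.44, 0.00142) and Creld2 by 6.76-fold (2.76 ± 0.51, 0.00429). Hyou1 (2.40 ± 0.51), Manf (2.34 ± 0.31) and Hsp90b1 (2.11 ± 0.43) rose by 5.27-fold, 5.05-fold and 4.33-fold. Dnajb9, which had not passed the test in Cpt2 L-/- liver, rose by 2.06-fold (1.04 ± 0.19, adjusted p = 0.00375). Calr (0.67 ± 0.23, adjusted p = 0.0548), Pdia4 (1.71 ± 0.66, 0.0804) and Pdia6 (0.39 ± 0.16, 0.0926) did not pass. The median was 2.23 over the members and 0.02 over all genes. Without replicate 1 of PPAR-a KO 8 members were called, where 17.2% of all genes rose, and without replicate 2 all 10 were, where 12.5% did. Without replicate 4, the highest library for 8 members, 7 were called and 16.6% of all genes rose, but the median was 1.59 and the log2 fold changes were 2.12 for Creld2, 1.62 for Hyou1 and 0.46 for Pdia4 (adjusted p = 0.248). Of the other cell types, bile duct markers summed to 12.4 to 29.2 CPM in PPAR-a KO against 4.76 to 10.1 CPM in control liver with 1 of 4 called higher, and 2 of the 3 plasma and B cell markers tested were lower. Of the Kupffer and macrophage markers 1 of 8 was higher and 2 were lower, 1 of 6 stellate and fibroblast markers was lower, and 1 of 7 hepatocyte and 1 of 6 endothelial markers were higher. Their part in the result was not tested.

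When Ppara was lost in Cpt2-deficient liver, every member rose. In Cpt2L-/- Ppara KO against Cpt2 L-/- liver 10 of 10 members were called higher, where 6.88% of the 12936 genes tested rose and 6.1% fell, and all 10 had no overlap, as had 11.5% of all genes in that direction. Sdf2l1 rose by 19.7-fold (4.30 ± 0.51, adjusted p = 0.0011) and Manf by 8.99-fold (3.17 ± 0.37, 0.00109). Pdia6 (2.11 ± 0.32), Creld2 (2.09 ± 0.30), Hspa5 (2.08 ± 0.33) and Calr (1.90 ± 0.31) rose by 3.73-fold to 4.31-fold. Hsp90b1 (1.81 ± 0.36), Hyou1 (1.35 ± 0.33), Pdia4 (1.31 ± 0.34) and Dnajb9 (0.68 ± 0.17) rose by 1.60-fold to 3.50-fold. The median was 1.99 against 0.02 over all genes. Without replicate 2 of Cpt2L-/- Ppara KO, the highest library of its group, the log2 fold change of Sdf2l1 was 3.63. All 10 were called without replicate 1 of Cpt2L-/- Ppara KO as well, where 9.04% of all genes rose. Pdia4, Hyou1 or Dnajb9 lost their call when any replicate of Cpt2 L-/- or replicate 2 of Cpt2L-/- Ppara KO was left out, which left at least 7, where 2.16% to 3.42% of all genes rose. Erythroid markers were called higher in 4 of 5 cases, with summed levels of 388 to 1053 CPM against 154 to 400.5 CPM, and 2 of 7 hepatocyte markers were higher. Their part in the result was not tested.

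Cpt2 loss on top of Ppara loss gave no call in the fit of these 8 libraries by edgeR, and calls under some other fits. In Cpt2L-/- Ppara KO against PPAR-a KO liver 0 of 10 members passed edgeR's quasi-likelihood test, where 0.868% of the 12784 genes tested did. All 10 members had a log2 fold change below 0, though that of Pdia6 was 0.00157 without replicate 1 of Cpt2L-/- Ppara KO. Of the members, 6 had an unadjusted p under 0.05, as had 30% of all genes, and DESeq2 called 3. The share of all genes called moved with these fits too. DESeq2 called 8.58% of all genes lower. With the 16 libraries of 4 groups in the fit 5 members and 12.6% of all genes fell, with all 24 libraries 6 members and 15.3% and with the replicate number as a block 3 members and 3.8%. Hyou1 (-2.24 ± 0.55, adjusted p = 0.0587), Creld2 (-2.04 ± 0.51, 0.0593) and Hspa5 (-1.94 ± 0.49, 0.0598) came nearest. Without the replicate 1 libraries of both groups, which were left out after their values were seen, 2 were called, where 2.12% of all genes rose and 2.6% fell. Of the plasma and B cell markers 2 of 4 were higher and of the Kupffer and macrophage markers 1 of 8, while 1 of 3 bile duct markers and 1 of 6 stellate and fibroblast markers were lower, and their part was not tested. In the interaction of Cpt2 and Ppara loss 2 members passed, where 24% of all genes did. These were Pdia6 (1.73 ± 0.37, adjusted p = 0.00379) and Calr (1.24 ± 0.40, 0.0313), which had fallen in Cpt2 L-/- liver and not passed the test in PPAR-a KO liver. The interaction ran from -1.03 for Hyou1 to 1.73 for Pdia6 and was above 0 for 4 members. Pdia4 was added to these when FPKM were tested in place of counts. Over 24 refits the interaction of Hyou1 ran from -1.28 to -0.29. The median over the members was -0.32, and 0.52 without replicate 4 of PPAR-a KO. The call for Calr was lost when replicate 1 or 2 of control, replicate 1, 2 or 3 of Cpt2 L-/-, replicate 2 or 3 of PPAR-a KO or replicate 2 or 4 of Cpt2L-/- Ppara KO was left out. Without both replicate 1 libraries Pdia6 (1.90, adjusted p = 0.00111) and Calr (1.39, 0.016) were called, where 13.2% of all genes were called above 0 and 14.1% below, so that the share of members lies near or under that of all genes.

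The sensors of the unfolded protein response and their transcription factors did not follow the chaperones in Cpt2 L-/- liver. Eif2ak3, which encodes Perk, the kinase that slows translation, was at 20.9, 25.5, 16.9 and 23.1 CPM in control liver and 57.7, 42.0, 41.8 and 62.7 CPM for Cpt2 L-/-. It was at 49.0, 56.8, 55.5 and 60.8 CPM in DKO and 56.7, 51.6, 64.0 and 40.9 CPM in PPAR-a KO liver. Each of these groups lay above all of control, as did Tsc1 L-/- (28.7 to 44.2 CPM) and Cpt2L-/- Ppara KO liver. Eif2ak3 rose in Cpt2 L-/- (1.24 ± 0.17, adjusted p = 3.15e-05), DKO (1.38 ± 0.17, 7.95e-06), Tsc1 L-/- (0.72 ± 0.17, 0.0142) and PPAR-a KO liver (1.30 ± 0.18, 0.000841). It was at 33.9, 27.3, 35.7 and 54.0 CPM in Cpt2L-/- Ppara KO liver, and its interaction of Cpt2 and Ppara loss was -1.73 ± 0.30 (adjusted p = 0.00128). In edgeR's quasi-likelihood test 24% of all genes passed this interaction, as did Atf6 (-0.93 ± 0.27, adjusted p = 0.0189). Atf4, Ddit3, Ern1 and Xbp1 did not. Without the replicate 1 libraries Eif2ak3 rose in PPAR-a KO by 1.27 (log2, adjusted p = 0.00173) and its interaction was -1.64 (0.00229).

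Atf4, the transcription factor translated when Perk or a related kinase is active, was at 74.3, 73.6, 72.5 and 78.1 CPM in control liver and 162, 107, 93.8 and 150.5 CPM for Cpt2 L-/-. In PPAR-a KO liver it was at 122, 217, 285 and 117 CPM, again above every control library. Atf4 was above control in all libraries of Tsc1 L-/- (84.8 to 103 CPM), DKO (103 to 172 CPM) and Cpt2L-/- Ppara KO (125 to 233 CPM) too. In Tsc1 L-/- liver it did not pass edgeR's quasi-likelihood test (0.30 ± 0.17, adjusted p = 0.328). It rose in Cpt2 L-/- (0.78 ± 0.17, adjusted p = 0.00162), DKO (0.95 ± 0.17, 0.00025) and PPAR-a KO liver (1.30 ± 0.27, 0.00642). Ddit3 (Chop), its target and a marker of prolonged stress, was at 8.21, 7.78, 4.73 and 4.30 CPM in control, 12.99, 6.97, 7.23 and 10.2 CPM for Cpt2 L-/-, 11.7, 19.5, 17.2 and 31.9 CPM for DKO and 19.8, 20.98, 64.3 and 15.7 CPM in PPAR-a KO liver. Ddit3 rose in DKO (1.70 ± 0.43, adjusted p = 0.00668) and PPAR-a KO liver (2.26 ± 0.45, 0.00576), and did not pass the test in Cpt2 L-/- liver (0.59 ± 0.43, 0.329). In Cpt2L-/- Ppara KO liver it was at 34.1, 17.2, 18.4 and 33.5 CPM and rose against Cpt2 L-/- (1.46 ± 0.30, 0.012). Without replicate 1 of PPAR-a KO the log2 fold changes there were 1.46 for Atf4 (adjusted p = 0.00314) and 2.42 for Ddit3 (0.00517), and without replicate 1 of Cpt2L-/- Ppara KO that of Ddit3 against Cpt2 L-/- was 1.30 (0.00705).

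Xbp1, whose messenger is spliced by Ire1, was at 175, 198, 192 and 219 CPM in control, 199, 209, 231 and 280.1 CPM for Cpt2 L-/- and 267, 399, 395 and 353 CPM in PPAR-a KO liver. Atf6 was at 91.7, 109.6, 89.3 and 101 CPM in control and 167, 148, 198 and 237 CPM in PPAR-a KO liver. All PPAR-a KO libraries were above control for both genes. So were those of Cpt2L-/- Ppara KO for Xbp1 (221 to 289 CPM) and those of DKO for Atf6 (127 to 148 CPM). Xbp1 (0.84 ± 0.17, adjusted p = 0.00558) and Atf6 (0.94 ± 0.17, 0.00389) rose in PPAR-a KO liver, and neither passed the test in Cpt2 L-/- liver (0.24 and 0.265). Atf6 rose in DKO against control liver as well (0.48 ± 0.14, 0.0128). Ern1, which encodes Ire1, was at 77.3, 59.9, 70.8 and 55.8 CPM in control and 126, 46.6, 58.1 and 128 CPM in PPAR-a KO liver, with overlap (0.44 ± 0.32, 0.319). Ern1 passed in DKO against Tsc1 L-/- liver, where it fell (-0.62 ± 0.20, 0.0249). Eif2ak3 (0.66 ± 0.17, 0.00555) and Atf4 (0.66 ± 0.17, 0.00525) rose in that comparison, and Atf6, Xbp1 and Ddit3 did not pass. Without replicate 1 of PPAR-a KO Xbp1 (0.96, adjusted p = 0.00176) and Atf6 (0.99, 0.00393) rose there and Ern1 did not pass (0.24, 0.609). Gene counts measure neither the splicing of Xbp1, nor the cleavage of Atf6, nor the phosphorylation of Perk.

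**Figure D4:**
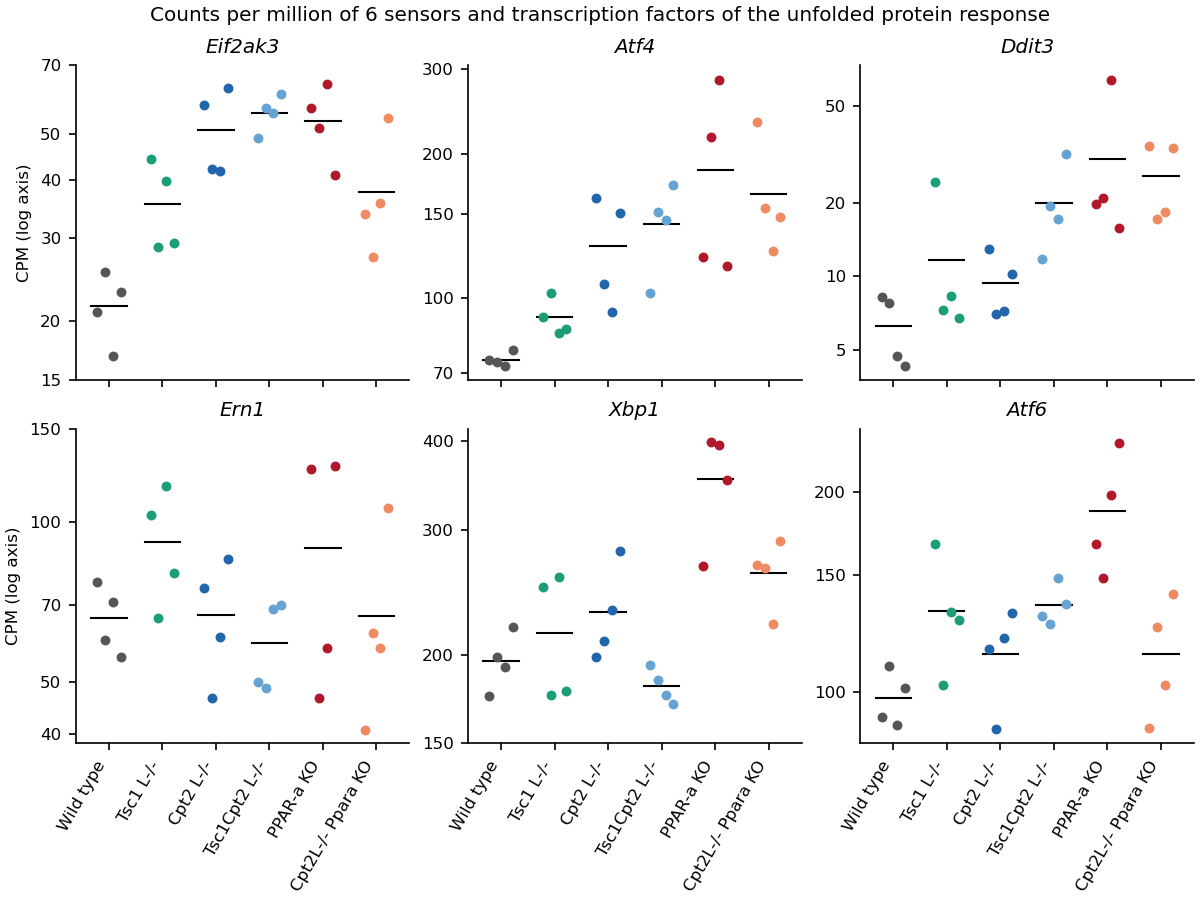
CPM of Ern1, Xbp1, Atf6, Eif2ak3, Atf4 and Ddit3 in every library (log axis), by genotype group, with a point for each library and a short line for the group mean. Eif2ak3 and Atf4 lie above control in every library of all other groups. Xbp1 libraries of PPAR-a KO and Cpt2L-/- Ppara KO lie above those of control, as do Atf6 libraries of PPAR-a KO and DKO.

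Other genes of the pathway were counted in lists. In Cpt2 L-/- against control liver 18 of 30 other ER folding and disulfide enzymes fell and 0 rose, with a median log2 fold change of -0.44, against a fall in 14.9% of all genes. Pdia3, a disulfide isomerase that works with Calr, fell most (-1.29 ± 0.15, adjusted p = 7.46e-06), followed by the ER oxidase Ero1lb (-1.15 ± 0.17, 6.29e-05). Among 24 genes of translocation, signal peptide cleavage and N-glycan transfer 13 fell and 0 rose, led by the channel subunit Sec61b (-1.07) and by Tram1 (-1.06). In ER-associated degradation 7 of 24 fell, among them Edem1 (-1.04), and 5 rose. In ER to Golgi traffic 1 of 23 fell and 3 rose, led by the coat subunit Sec24d (0.95). Of the sensors and transcription factors 5 of 13 rose and 0 fell, and of the Perk and Atf4 feedback genes 4 of 9 rose, where 16.2% of all genes rose. The latter were led by Atf3 (4.69) and Chac1 (1.93), a glutathione-degrading enzyme. Of 24 cytosolic and mitochondrial chaperones, which lie outside the ER, 4 rose, led by Hspb1 (2.70), and 2 fell, among them Hsph1 (-1.11). DKO and Tsc1 L-/- liver lie on one side of the library split. In DKO against Tsc1 L-/- liver 9 of 30 folding enzymes fell and 2 rose, where 15.2% of all genes fell and 16.9% rose. Of 24 translocation genes 1 fell and 2 rose there, and of the 24 cytosolic and mitochondrial chaperones 15 rose and 0 fell. Against control 8 of these chaperones rose and 1 fell in DKO liver, where 19.3% of all genes rose. In Tsc1 L-/- liver 2 rose and 5 fell, where 6.64% of all genes passed.

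In DKO against Cpt2 L-/- liver 11 of 30 folding enzymes and 13 of 24 translocation genes rose and 0 fell in either list, where 10.9% of all genes rose. Fkbp11 (1.39 ± 0.30), a prolyl isomerase of the secretory pathway, Ostc (1.22 ± 0.15), a subunit of oligosaccharyltransferase, and Sec61b (1.20 ± 0.32) led them. Of the degradation genes 2 of 24 rose, of the sensors and transcription factors 1 of 13 and of the Perk and Atf4 feedback genes 0 of 9, shares near or under that of all genes, and no difference between lists was tested. In PPAR-a KO against control liver, where 14.8% of all genes rose and 12.7% fell, 12 of 24 degradation genes rose and 1 fell, led by Derl3 and the ubiquitin ligase Syvn1 (1.67), 12 of 24 translocation genes, led by Sec61a1 (1.20), and 8 of 30 folding enzymes, with 1 that fell, led by Hspa13 (1.35) and Ero1lb (1.34). Of the sensors and transcription factors 8 of 13 rose and 1 fell, and of the feedback genes 6 of 9 rose, with Atf3 at 3.81 and Chac1 at 2.70. Traffic genes rose in 7 of 22 cases, with Kdelr2, a receptor that returns escaped ER proteins, at 1.23. Of the cytosolic and mitochondrial chaperones 1 of 24 rose and 4 fell, among them Hsph1 (-1.46) and Dnajb1 (-1.11). Without replicate 1 of PPAR-a KO, where 17.2% of all genes rose, 13 degradation genes, 13 translocation genes, 8 folding enzymes, 9 sensors and factors, 7 feedback genes and 8 traffic genes rose.

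In Cpt2L-/- Ppara KO against Cpt2 L-/- liver 14 of 30 folding enzymes, 15 of 24 translocation genes and 8 of 24 degradation genes rose and 0 of these fell, where 6.88% of all genes rose. Fkbp11 (2.13 ± 0.48), Pdia3 (1.75 ± 0.28), Sec61b (2.13 ± 0.29) and Sec61g (2.10 ± 0.30) led them. The sensors and transcription factors gave 1 of 13 higher, Ddit3, and 1 lower, the hepatocyte factor Creb3l3 (-0.84). Without replicate 1 of Cpt2L-/- Ppara KO, where 9.04% of all genes rose, 17 folding enzymes, 17 translocation genes and 10 degradation genes did. Derl3, a factor of ER-associated degradation, ranged from near 0 to 1172 reads, with 31, 52, 23 and 26 reads in the control libraries and 5, 4, 0 and 1 in Cpt2 L-/- liver. It had 230, 351, 1145 and 1172 reads in PPAR-a KO and 152, 637, 166 and 392 in Cpt2L-/- Ppara KO liver. In DKO liver it had 0, 0, 0 and 2 reads, so that its DKO libraries overlapped Cpt2 L-/- and not control.

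**Figure D5:**
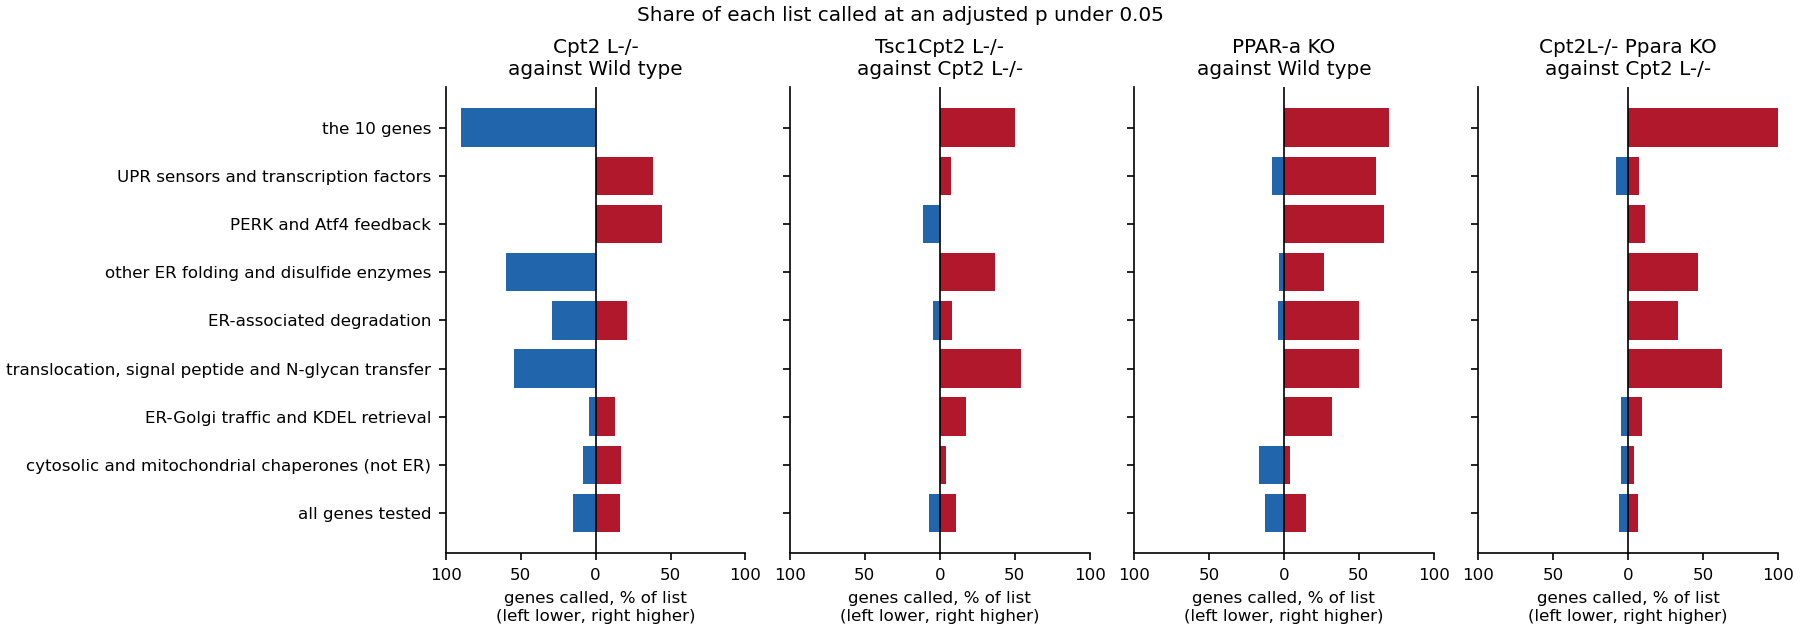
Percent of the genes of each list called higher (right, red) or lower (left, blue) at an adjusted p under 0.05 by edgeR in 4 comparisons, beside the same over all genes tested. ER folding and translocation lists stand out as lower in Cpt2 L-/- against control and as higher in Cpt2L-/- Ppara KO against Cpt2 L-/- liver. The cytosolic and mitochondrial list stays near all genes in these comparisons, though not in DKO against Tsc1 L-/- liver, which is not plotted.

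The members rose and fell together across libraries. Over 24 libraries, which share genotype groups and differ in depth, the correlation of log2 CPM between pairs of members ran from r = 0.476 (Dnajb9 with Pdia6) and 0.613 (Dnajb9 with Pdia4) to 0.984 (Manf with Sdf2l1), given as a description. Against the mean of all 10, to which each contributes, members ran from 0.81 for Pdia6 and 0.817 for Dnajb9 to 0.979 for Sdf2l1. Among 13987 genes the 8 that are no member and were most like this mean were Spcs2 (r = 0.97), Dnajb11 (0.967), Hspa13 (0.956), Pdia3 (0.952), Tmed7 (0.942), Slc35b1 (0.928), Piga (0.917) and Ero1lb (0.91). Spcs2 is a subunit of the signal peptidase and Dnajb11 an ER J-domain chaperone. Slc35b1, a transporter of nucleotides across the ER membrane, had log2 fold changes of -1.01 in Cpt2 L-/- and 1.54 in PPAR-a KO against control, and 2.01 in Cpt2L-/- Ppara KO against Cpt2 L-/- liver. Dnajb11 had -1.06, 1.05 and 1.37 in the same comparisons, and Spcs2 -0.71, 1.07 and 1.36. With deviations from the group means in place of the levels, 4 of these 8 genes stayed among the 8 most alike, and without the replicate 1 libraries of PPAR-a KO and Cpt2L-/- Ppara KO 6 did. Without these libraries the log2 fold changes in PPAR-a KO and in Cpt2L-/- Ppara KO liver were 1.63 and 2.09 for Slc35b1, 1.20 and 1.52 for Dnajb11 and 1.14 and 1.41 for Spcs2.

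The ERSE was also looked up beyond the members. It was in the promoter windows of 37 gene symbols, of which 20 were tested in at least 1 comparison and 5 are the members printed above. Of the genes that are no member, 6 of 14 fell and 1 rose in Cpt2 L-/- against control liver, where 14.9% of all genes fell and 16.2% rose, with a median log2 fold change of -0.46 against -0.02 over all genes. Those that fell were Derl3, the lectin chaperone Canx (-0.65), Dnajc3 (-0.70), Syvn1 (-0.47), Ero1lb (-1.15) and Acnat2 (-2.74), and Acacb, an acetyl-CoA carboxylase of fat metabolism, rose (2.03). In Cpt2L-/- Ppara KO against Cpt2 L-/- liver 6 of 13 rose and 1 fell, where 6.88% of all genes rose and 6.1% fell, with Dnajc3 at 1.02, Ero1lb at 1.04, Acnat2 at 2.21 and Acacb at -1.55. In PPAR-a KO against control liver 5 of 13 rose and 0 fell, where 14.8% of all genes rose. These were Derl3, Syvn1, Ero1lb, Acacb (1.07) and Pan2 (0.70). Without the replicate 1 libraries 8 rose and 1 fell in Cpt2L-/- Ppara KO against Cpt2 L-/- liver and 5 rose in PPAR-a KO against control. These genes, apart from those named by the fixed rule, were named after their values were seen.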

How the data were processed

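Total RNA from liver pieces was extracted with TRIzol and sequenced as single reads from TruSeq stranded mRNA libraries. The deposited tables hold raw read counts per gene and the authors' FPKM values, scaled for gene length and for counted reads. The submitters' processing notes name STAR 2.5, HTSeq 0.6.1, TopHat, Bowtie 0.12.2, edgeR, DESeq2 and the builds mm8 and mm9, with no role for each. Gene coordinates in the tables are nonetheless those of GRCm38, with 70.6% of genes identical to GENCODE M21. Whether counting used strand is not given in the sources used here.

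Counts were tested with edgeR 4.0.16 in R 4.3.3 (robust quasi-likelihood, TMM, filterByExpr with a minimum count of 10 and a total of 15, Benjamini-Hochberg over all genes tested, threshold 0.05), and CPM, counts scaled to library depth, used TMM factors over 24 libraries. The control, Tsc1 L-/-, Cpt2 L-/- and DKO groups were fitted together (16 libraries), each Ppara comparison on its own 8 libraries and the Cpt2 and Ppara interaction on the 16 libraries of its 4 groups. The step was tested on simulated counts. Correlations used log2 CPM with a prior count of 2. Alternatives were DESeq2 1.42.0, limma 3.58.1 on log2(FPKM + 1) and log2(FPKM + 0.1), other size factors, filters and fits, and leaving out each library.

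The genes named are the 10 members, the 6 sensors and factors plotted, the 8 genes most like the members, and from each list and comparison at most the 2 genes with the largest absolute log2 fold change among those called with a mean of at least 1 CPM. Not all genes that this rule gives are printed. The members, gene lists and tests were chosen with earlier results of these data known. Replicate numbers were not used as pairs.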

Additional observations from a re-analysis of the deposited data

Results flagged for a closer look

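In groups of 4 libraries, 6 of 60 member and group pairs had a highest library set apart from the other 3 by more of the group's range than Dixon's critical value, which chance gives in about 1 of 20 groups. Replicate 1 of Tsc1 L-/- stood apart for Hspa5 (1091 CPM), Hsp90b1 (658 CPM) and Pdia4 (274 CPM). Replicate 4 of PPAR-a KO stood apart for Pdia4 (2119.9 CPM). Replicate 2 of Cpt2L-/- Ppara KO stood apart for Sdf2l1 (192 CPM) and Manf (420.0 CPM).

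For 3 members the effect of one deletion differed with the other by the interaction term of edgeR's quasi-likelihood fit. The effect of Cpt2 loss on Manf was 1.36 higher (log2) without Tsc1 than with it (adjusted p = 0.0473), where 2.38% of all genes passed, and this call was kept in 7 of 23 refits. The effect of Cpt2 loss was 1.73 higher for Pdia6 and 1.24 higher for Calr without Ppara than with it, where 24% of all genes passed, so that 2 of 10 members lie near that share.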

How the results depend on the processing

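The 9 members called in Cpt2 L-/- against control stayed at 9 without any single library (9 to 9) and at 7 to 9 under the other settings, and those in Cpt2L-/- Ppara KO against Cpt2 L-/- at 7 to 10 and 9 to 10. PPAR-a KO against control gave 7 to 10 and 7 to 9. Counts in the other comparisons depended on the fit. DKO against control gave 1 call with all 24 libraries in the fit, 3 with limma on log2(FPKM + 0.1), 1 when calls also needed a log2 fold change of size 1 or more and 4 to 6 without single libraries. DKO against Cpt2 L-/- gave 2 with all 24 libraries, 3 with the fold limit and 2 to 5 without single libraries. DKO against Tsc1 L-/- gave 3 with no filter on low counts, 2 with all 24 libraries, 3 with limma on log2(FPKM + 1), 3 on log2(FPKM + 0.1), 2 with the fold limit and 2 to 6 without single libraries. Tsc1 L-/- against control gave 0 to 1 without single libraries.

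The interaction of Tsc1 and Cpt2 loss gave 0 calls with no filter, 0 with all 24 libraries, 0 with either limma setting and 0 to 2 without single libraries. The interaction of Cpt2 and Ppara loss gave 1 with either limma setting and 1 to 2 without single libraries. Cpt2L-/- Ppara KO against PPAR-a KO gave 1 with no filter, 3 with DESeq2, 6 with all 24 libraries, 5 with the 16 libraries of 4 groups, 0 to 3 without single libraries (3 without replicate 1 of PPAR-a KO) and 2 without replicate 1 of both groups, the last chosen after seeing the data. The cause was not tested in any of these cases. Of the 8 genes most like the members 5 stayed with Spearman's rho and 4 with values centred within groups, and 6 without the replicate 1 libraries of PPAR-a KO and Cpt2L-/- Ppara KO, added after seeing the data.

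Libraries with the same replicate number did not deviate together (60 pairs, median r 0.015, range -0.255 to 0.224, with 11 over 0.1), and 0 of 24 libraries were most alike to their own number in every other group. With the replicate number as a block Cpt2L-/- Ppara KO against PPAR-a KO gave 3 calls and DKO against Tsc1 L-/- 4, and no other count moved by more than 1.5 times.

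Of 727 refitted values of called members 632 stayed called, 95 were no longer called and 0 changed direction. Of 1033 values of members not called 974 stayed so, 40 became called and 19 changed sign. In Tsc1 L-/- against control, Hyou1 turned to 0.0306 and 0.0301 with limma on log2(FPKM + 1) and log2(FPKM + 0.1) and ran from -0.33 to 0.174 without single libraries (0.102, 0.150 and 0.0685 among them). Hspa5 (0.0180, range -0.47 to 0.0180) and Dnajb9 (0.0355, range -0.21 to 0.0355) turned without replicate 2 of control. In Cpt2 L-/- against control Dnajb9 turned to 0.0480 and 0.0493 with limma and to 0.101 without replicate 2 of control (range -0.13 to 0.101). Other turns were Dnajb9 in DKO against control (-0.00292 without replicate 4 of control, range to 0.23), Hsp90b1 in DKO against Cpt2 L-/- (-0.0198 without replicate 1 of DKO, range to 0.15), Hspa5 in DKO against Tsc1 L-/- (0.0956 without replicate 1 of Tsc1 L-/-, range from -0.30) and Pdia6 in Cpt2L-/- Ppara KO against PPAR-a KO (0.00157 without replicate 1 of the first, range from -0.52). In the interaction of Cpt2 and Ppara loss Pdia4 turned to 0.0595 and 0.0719 with limma and to 0.824 without replicate 4 of PPAR-a KO (range from -0.72), as did Hsp90b1 (0.224, range from -0.80). The median of all genes moved by over 0.1 in DKO against control with limma on log2(FPKM + 0.1), to 0.171. The precision is limited by the spread within 4 libraries a group, widest in PPAR-a KO, and by depth, with at least 44 counts of a member in any library.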
